A study of Mus musculus with 7 samples.

Results

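Genes of the secretory and of the motile ciliated epithelial cells of the oviduct were measured in mouse uterine libraries. The members were taken by gene symbol: Ovgp1 and Pax8 for secretory cells, and Foxj1, Rsph1, Tekt1, Dnah5, Dnaic1, Ccdc39, Tppp3 and Cdhr4 for ciliated cells. Of these 10 genes, 9 had a row among the 23282 rows of the tables, 2 secretory and 7 ciliary, and Cdhr4 was not analysed here. C57BL/6 females of 6 weeks, per the methods, received recombinant human CXCL12, a chemokine, at 100 ng in 30 µl into one uterine horn and saline into the other. Polyadenylated RNA of the uterus was read at its 3′ end by QuantSeq in 7 libraries, of which 2 were saline-treated and 2 and 3 came from tissue taken on Day 3 and Day 8 after CXCL12. For saline no day is given by the labels, which also name no stage of the cycle and do not say whether a library holds 1 animal. No transgene or deletion is named for any group. Levels are given as CPM, counts per 1000000 counts of the library.

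The oviduct is lined by secretory cells, which release the glycoproteins that bathe gametes and early embryos, and by multiciliated cells, whose beating cilia move fluid and embryos. In the mouse, multiciliated cells are dense in the oviduct and sparse in the lining of the uterus. A motile cilium is built on microtubule doublets that carry outer and inner dynein arms, radial spokes and tektin filaments. Its genes are switched on together by Foxj1 and by the RFX factors, which bind an inverted repeat called the X-box. Since the libraries come from whole tissue, fewer cells of a type and less RNA per cell cannot be told apart.

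The upstream sequences of ciliary genes were read from RefSeq (GRCm38.p6) to show what these genes share apart from their level. Each window searched ran from 250 bases before the start site to 50 bases after it, on both strands. The X-box half-site, GTTGCC, was present in 38 of 74 promoters (51.4%) of 67 genes of the motile ciliary lists described below, against 12.5% of all 32851 promoters. The full X-box, searched by name with up to 3 bases between its arms, was present in 16 of the 74 promoters (21.6%) and in 1.53% of all. A full X-box can hold a half-site, so the counts overlap. The letters TGTTTAC, a core of forkhead sites, were present in 6.76% of the list's promoters and in 3.65% of all. Among the measured ciliary members, 4 of 7 had an entry (Tekt1, Dnah5, Dnaic1 and Ccdc39, with 5 promoters in all). Tekt1 held 2 half-sites, at -35 on the minus strand and at -15 on the plus strand, and Dnaic1 held an X-box at -19. None of the 5 promoters held the forkhead letters, and the promoters of Ovgp1 and Pax8 held none of the motifs. A match of letters is a description of the sequence and not a binding site. The 250 bases before the start are shown 5′ to 3′ for Tekt1, Dnaic1 and Dynlrb2, the last a list gene that stood at 0 in 1 library, with Ovgp1 as the secretory gene without a match. Capitals mark the half-sites in Tekt1 and the full X-box in Dnaic1 and Dynlrb2.
Tekt1, chr11:72361883-72362132, minus strand: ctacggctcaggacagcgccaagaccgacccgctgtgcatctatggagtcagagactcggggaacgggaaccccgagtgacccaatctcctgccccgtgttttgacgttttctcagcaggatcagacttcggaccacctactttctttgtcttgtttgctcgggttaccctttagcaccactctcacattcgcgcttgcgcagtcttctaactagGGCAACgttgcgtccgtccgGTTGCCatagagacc
Dnaic1, chr4:41569544-41569793, plus strand: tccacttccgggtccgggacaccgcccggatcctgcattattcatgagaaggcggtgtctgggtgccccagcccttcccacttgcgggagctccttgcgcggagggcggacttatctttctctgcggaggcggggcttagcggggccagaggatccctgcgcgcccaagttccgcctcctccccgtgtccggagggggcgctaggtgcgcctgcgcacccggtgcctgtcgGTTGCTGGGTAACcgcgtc
Dynlrb2, chr8:116504765-116505014, plus strand: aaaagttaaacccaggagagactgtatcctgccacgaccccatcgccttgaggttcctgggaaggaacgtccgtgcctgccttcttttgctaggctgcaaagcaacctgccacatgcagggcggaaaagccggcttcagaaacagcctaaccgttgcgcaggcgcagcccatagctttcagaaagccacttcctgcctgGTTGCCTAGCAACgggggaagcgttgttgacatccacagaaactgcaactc
Ovgp1, chr3:105973552-105973801, plus strand: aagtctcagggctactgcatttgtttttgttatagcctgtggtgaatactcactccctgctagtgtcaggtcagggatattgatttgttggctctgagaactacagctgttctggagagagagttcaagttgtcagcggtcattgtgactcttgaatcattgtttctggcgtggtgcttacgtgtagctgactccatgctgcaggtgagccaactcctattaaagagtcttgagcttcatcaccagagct

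The 6 libraries with counts held between 6908790 and 12308982 counts, and 3 counts, taken as the floor, correspond to between 0.244 and 0.434 CPM. Day 3 replicate 1 was deposited as log2 values of normalized counts, so its levels are per 1000000 of its summed normalized counts, 11003222 in all, and carry no counting interval. The label puts Day 8 replicate 1 at Day 8, while its table is named for Day 3. Uterine identity genes were present in each library: Hoxa10 lay between 91.0 and 343 CPM. Genes of the ovary differed widely between libraries. The summed level of 10 ovarian steroidogenic genes was 232 and 1204 CPM in the saline-treated libraries, 8.20 and 12.8 CPM at Day 3, and 89.6, 3666 and 12.7 CPM in Day 8 replicates 1, 2 and 3. The summed level of 8 oocyte genes was 81.9 CPM in both saline-treated libraries, 0.628 and 0.903 CPM at Day 3, and 17.0, 87.3 and 3.32 CPM at Day 8. Day 3 replicate 2 and Day 8 replicate 3 had 5 and 6 of these oocyte genes at 0 (Gdf9, an oocyte growth factor, had 0.401 and 3.02 CPM and Padi6 0 CPM in both), and Hsd3b1 and Cyp11a1, steroidogenic enzymes, were at 0 CPM in the first and at 0.402 and 0.101 CPM in the second. These values are set beside the results below, and their part in the members' levels was not tested.

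Ovgp1 encodes oviductin, the glycoprotein that oviduct secretory cells release onto the egg coat. It lies at chr3:105973711-105987423 on the plus strand (GRCm38). Its level was 626 and 622 CPM in saline replicates 1 and 2, 640 and 729 CPM in Day 3 replicates 1 and 2, and 283, 647 and 235 CPM in Day 8 replicates 1, 2 and 3. Day 8 replicates 1 and 3 thus lay apart below the other 5 libraries, while Day 8 replicate 2 overlapped with the Day 3 libraries. Its counts, from 2338 to 7964, make counting error small: the exact 95% interval (Clopper-Pearson) was 226 to 245 CPM in Day 8 replicate 3 and 606 to 638 CPM in saline replicate 2. These intervals cover counting error alone. The group means were 624 ± 2.85 CPM in saline (SD, n = 2), 685 ± 63.3 CPM at Day 3 (SD, n = 2) and 388 ± 225 CPM at Day 8 (SD, n = 3). Day 8 replicate 2 was above both saline-treated libraries and the other Day 8 libraries were below them, so these groups overlapped too. The log2 fold change of Day 8 against saline was -0.44 (SE 0.44; adjusted p = 0.96). Here and below, this comparison was tested by edgeR (quasi-likelihood F test, Benjamini-Hochberg over all genes tested), and those with Day 3 by limma. Against Day 3, the log2 difference of Day 8 was -0.86 (SE 0.39), with an adjusted p of 0.70 by limma.

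Pax8, a transcription factor of secretory cells in the reproductive tract, did not follow Ovgp1. It lies at chr2:24420560-24475599 on the minus strand. Its level was 5.07 and 23.1 CPM in the saline-treated libraries, 18.4 and 13.7 CPM at Day 3, and 20.4, 13.4 and 33.3 CPM at Day 8. Saline replicate 1 was the lowest library and Day 8 replicate 3 the highest, and the groups overlapped. The counts behind these levels ran from 35 in saline replicate 1 to 331 in Day 8 replicate 3, with exact 95% intervals of 3.53 to 7.05 CPM and 29.8 to 37.1 CPM, so the distance between these 2 libraries was beyond counting error. The library with the lowest Ovgp1 level was thus the one with the highest Pax8 level. Over the 7 libraries, Pearson's r between the log2 levels of Ovgp1 and Pax8 was -0.67, a description of libraries that also differ in depth and group. The log2 fold change of Pax8 at Day 8 against saline was 0.88 (SE 0.69), with an adjusted p of 0.96 by edgeR. It came to 2.46 without saline replicate 2 and to 0.16 without saline replicate 1, so the value rests on these libraries.

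**Figure D1:**
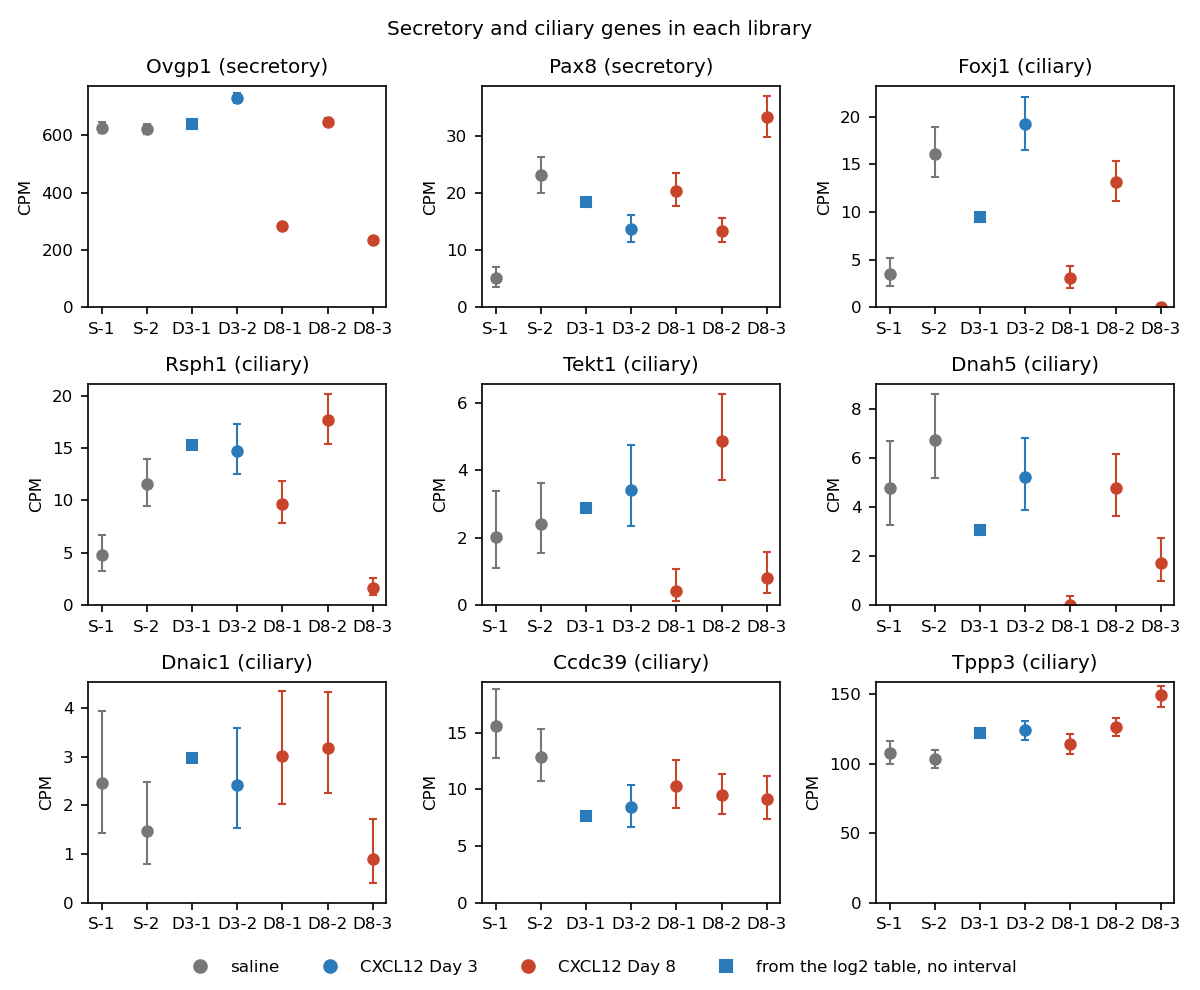
Level of the 9 measured genes in each library, in CPM on an axis that starts at 0, with 1 panel per gene. S, D3 and D8 stand for saline, CXCL12 Day 3 and CXCL12 Day 8, followed by the replicate number. Bars are exact 95% counting intervals, and squares mark the library deposited as log2 values. Ovgp1 lies at 283 and 235 CPM in Day 8 replicates 1 and 3 and above 600 CPM elsewhere, Foxj1 is at 0 in Day 8 replicate 3, and Tppp3 stays between 103 and 149 CPM.

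Foxj1, the forkhead factor that switches on the genes of motile cilia, ranged from 0 to 191 counts. It lies at chr11:116330704-116335399 on the minus strand. Its level was 3.47 and 16.1 CPM in the saline-treated libraries, 9.48 and 19.2 CPM at Day 3, and 3.02, 13.1 and 0 CPM at Day 8. In counts this was 24 and 153 in saline, 191 in Day 3 replicate 2, and 29, 161 and 0 at Day 8. The 0 counts of 9941132 in Day 8 replicate 3 correspond to a floor of 3 counts at 0.302 CPM, and the exact 95% interval ended at 0.371 CPM. The other 2 Day 8 libraries covered nearly the range of saline, and the saline-treated libraries differed from each other beyond their counting intervals of 2.23 to 5.17 CPM and 13.7 to 18.9 CPM. The log2 fold change of Day 8 against saline was -0.66 (SE 1.37), with an adjusted p of 0.96 by edgeR. The log2 difference of Day 8 against Day 3 was -3.09 (SE 1.78), with an adjusted p of 0.73 by limma, and a gene at 0 makes this difference depend on the pseudocount. It was -1.06 without Day 8 replicate 3.

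Rsph1, a head protein of the radial spokes, followed Foxj1 most closely. It lies at chr17:31255019-31277383 on the minus strand. Its level was 4.78 and 11.6 CPM in saline, 15.3 and 14.7 CPM at Day 3, and 9.69, 17.7 and 1.61 CPM at Day 8. As with Foxj1, saline replicate 1 was below saline replicate 2 and Day 8 replicate 3 was the lowest of all, at 16 counts. The Day 3 libraries were both above both saline-treated libraries. The log2 difference of Day 3 against saline was 1.33 (SE 0.98), with an adjusted p of 0.66 by limma. Pearson's r between the log2 levels of Foxj1 and Rsph1 was 0.91 over the 7 libraries. The antisense gene AC154652.1 overlaps the 3′ exon of Rsph1, and whether reads were counted by strand is not given in the sources used here.

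Tekt1 encodes a tektin, a filament protein inside the doublets, and lies at chr11:72344722-72362442 on the minus strand. Its level was 2.03 and 2.42 CPM in saline, 2.87 and 3.41 CPM at Day 3, and 0.417, 4.87 and 0.805 CPM at Day 8. Day 8 thus held both the highest library, with 60 counts, and the lowest ones, with 4 and 8 counts. Its mean was 2.22 ± 0.281 CPM in saline (SD, n = 2) and 2.03 ± 2.47 CPM at Day 8 (SD, n = 3), while the fitted log2 fold change, which is scaled by TMM, was 0.10 (SE 1.01; adjusted p = 1 by edgeR). It ran opposite to the CPM means and was small beside its error.

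Dnah5 and Dnaic1 encode a heavy and an intermediate chain of the outer dynein arm, the motor that drives the beat. Dnah5 lies at chr15:28203752-28472052 on the plus strand. Its level was 4.78 and 6.74 CPM in saline, 3.06 and 5.22 CPM at Day 3, and 0, 4.79 and 1.71 CPM at Day 8. Here Day 8 replicate 1 was the library at 0, with a floor of 0.312 CPM and an exact 95% interval that ended at 0.384 CPM, and Day 8 replicate 3 kept 17 counts. Dnaic1, at chr4:41569775-41638158 on the plus strand, had 2.46 and 1.47 CPM in saline, 2.96 and 2.41 CPM at Day 3, and 3.02, 3.17 and 0.905 CPM at Day 8. For Dnaic1, Day 8 replicate 1 was among the high libraries, and Day 8 replicate 3 was the lowest with 9 counts. With 9 to 39 counts a library, the counting intervals of neighbours in this order overlapped. The log2 fold changes of Day 8 against saline were -1.18 (SE 1.17) for Dnah5 and 0.55 (SE 0.75) for Dnaic1, both with an adjusted p of 0.96 by edgeR. Enho lies on the opposite strand over the 3′ end of Dnaic1, and its level was between 4.12 and 8.93 CPM.

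Ccdc39 and Tppp3 did not share the low values of the Day 8 libraries. Ccdc39, which with Ccdc40 forms the ruler that spaces the arms along the doublet, lies at chr3:33812362-33844310 on the minus strand. Its level was 15.6 and 12.9 CPM in saline, 7.66 and 8.43 CPM at Day 3, and 10.3, 9.51 and 9.15 CPM at Day 8. Both saline-treated libraries were above the other 5. Saline replicate 1, the highest, was also the highest library for 38% of all genes with a mean of 1 CPM or more. Its log2 fold change was -0.29 (SE 0.32) at Day 8 against saline, and its log2 difference was -0.51 (SE 0.32) at Day 3 against saline, with adjusted p of 0.96 by edgeR and 0.63 by limma. Ttc14, which overlaps the 3′ exon of Ccdc39 on the other strand, was likewise highest in saline, at 84.0 and 60.6 CPM against 40.6 to 50.2 CPM in the other libraries, and its part in the reads of Ccdc39 was not tested. Tppp3 encodes a tubulin-binding protein of ciliated cells that fibroblasts also make, and lies at chr8:105467493-105471526 on the minus strand. It was the steadiest member, at 108 and 103 CPM in saline, 122 and 124 CPM at Day 3, and 114, 126 and 149 CPM at Day 8. Both saline-treated libraries were the lowest, Day 8 replicate 3 was the highest, and the log2 fold change of 0.55 (SE 0.26) had an adjusted p of 0.96 by edgeR. Pearson's r with Foxj1 was -0.04 for Ccdc39 and -0.55 for Tppp3 over the 7 libraries.

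Between the groups, none of the 9 members passed the test. The comparison of Day 8 with saline asks what differed in the CXCL12-infused uterus after 8 days. At a 2-fold change and an unadjusted P of 0.05, edgeR called 0 of 9 members there, against 2.94% of 15388 genes (235 higher and 218 lower). By limma the count was 0 of 9 at Day 3 against saline, where 4.51% of 14800 genes were called, and 0 of 9 at Day 8 against Day 3, where 4.64% were called. At an adjusted p of 0.1 in place of the unadjusted P, each of these 3 comparisons called 0 genes, and the smallest adjusted p over all genes was 0.956, 0.622 and 0.267. DESeq2, run on Day 8 against saline, called 0 members by either rule. These comparisons share their libraries. The members' log2 differences ran from -1.18 to 0.88 at Day 8 against saline, with standard errors from 0.26 to 1.37, from -0.51 to 1.33 at Day 3 against saline, and from -3.09 to 0.35 at Day 8 against Day 3. For the lower genes, differences of several fold lie within these errors. Day 8 replicate 2 decided part of the last comparison: without it, 4 members (Ovgp1, Foxj1, Tekt1 and Dnah5) were called lower at Day 8 than at Day 3, against 3.22% of all genes in that fit, with log2 differences of -1.29, -4.54, -2.17 and -3.34, and adjusted p from 0.94 to 0.99 by limma. Other settings gave larger or smaller differences. With a pseudocount of 0.1, that of Foxj1 was -4.2 and that of Dnah5 was -3.3, against -3.09 and -2.23 in the main fit. The difference of Foxj1 was -3.66 without Day 8 replicate 1, and that of Dnah5 was -2.73 without Day 8 replicate 3. The following were smaller. Without Day 8 replicate 3, the difference of Ovgp1 was -0.57 and that of Foxj1 was -1.06. Without Day 8 replicate 1, the difference of Tekt1 was -0.71 and that of Dnah5 was -0.61. With the counts of Day 3 replicate 1 estimated from its log2 values, edgeR gave -1.41 for Foxj1, -0.63 for Tekt1 and -0.93 for Dnah5. Ovarian steroidogenic genes stood at 3666 CPM in Day 8 replicate 2, and their part in the result was not tested.

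**Figure D2:**
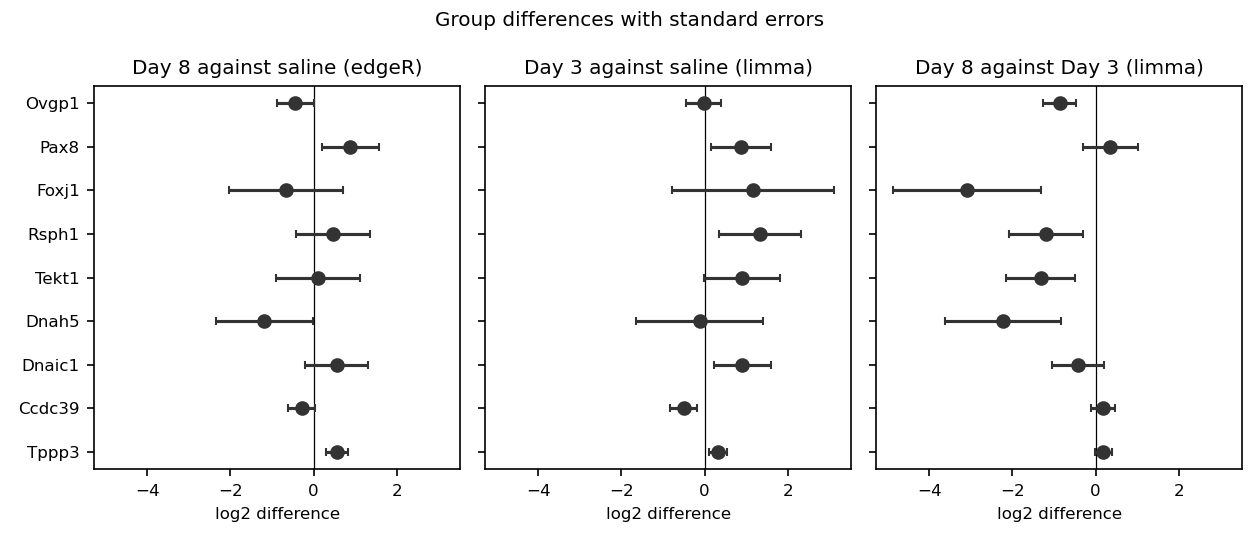
Log2 difference of the 9 members in the 3 comparisons, with standard errors as bars. Day 8 against saline is by edgeR on 6 libraries and the others are by limma on 7. Foxj1 and Dnah5 lie at -3.09 and -2.23 at Day 8 against Day 3 with errors of 1.78 and 1.39, and at -1.41 and -0.93 by edgeR with estimated counts (not drawn), and no member passed the adjusted threshold.

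Set side by side within a library, the secretory and ciliary genes kept no fixed proportion. The ratio of Pax8 to Foxj1 counts was 1.46 and 1.43 in the saline-treated libraries, 1.94 and 0.717 at Day 3, and 6.76 and 1.02 in Day 8 replicates 1 and 2. In Day 8 replicate 3, 331 counts of Pax8 stood against 0 of Foxj1. The ratio of Ovgp1 to Rsph1 counts was 131 and 53.7 in saline, 41.8 and 49.5 at Day 3, and 29.2, 36.5 and 146 at Day 8. Both saline-treated libraries had nearly the same first ratio, although the higher library had 4.55 times the Pax8 level and 4.64 times the Foxj1 level of the lower. Ovgp1 differed there by 1.01 times. On the log2 scale, the median of the 7 ciliary members spanned 2.48 between the highest and the lowest library, and Ovgp1 spanned 1.59. Without Day 8 replicate 3 the ciliary span was 1.45.

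To see whether the members' low values in Day 8 replicate 3 extended to other genes of the motile cilium, 77 genes of 7 lists were read (regulators, outer arm, inner arm with nexin link and ruler, radial spoke and central pair, tektins and inner proteins, assembly factors, and other genes of motile ciliated cells). A further 4 list genes (Dnah3, Dnah12, Rsph10b and Dnaaf6b) were not analysed here. Their summed level was 543 and 535 CPM in saline, 484 and 558 CPM at Day 3, 523 and 480 CPM in Day 8 replicates 1 and 2, and 270 CPM in Day 8 replicate 3. Day 8 replicate 3 thus lay apart from the other 6 libraries, which lay within a narrow range. Of the 62 list genes with a mean of 1 CPM or more, 36 (58.1%) had their lowest level in Day 8 replicate 3, against 16.8% of 14228 genes at this level overall. In that library 16 of the 77 genes had 0 counts, against 2 to 4 in the other count libraries. Over all 23282 rows, 6917 had 0 counts there. At a mean of 1 CPM or more, 10 of the 62 list genes had 0 counts there, against 136 of 14228 genes. Of the 62 genes, 23 (37.1%) stood under 0.25 times the median of the other 6 libraries, against 3.85% of all genes. By list, the median gene stood at 0.215 times that level for other motile ciliated cell genes, 0.298 for tektins with inner proteins and 0.340 for radial spoke with central pair. It stood at 0.478 for regulators, 0.517 for the outer arm, 0.691 for the inner arm and 0.756 for assembly factors.

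Among the 19 other genes of motile ciliated cells, 15 (78.9%) were lowest in Day 8 replicate 3, and 4 were at 0. Capsl and Ccdc153 had the highest mean level of the list. Capsl had 27.1 and 26.4 CPM in saline, 36.6 and 38.9 CPM at Day 3, and 44.8, 16.5 and 8.95 CPM at Day 8. Ccdc153 had 16.5 and 15.5 CPM in saline, 21.9 and 29.1 CPM at Day 3, and 24.2, 26.6 and 0.604 CPM at Day 8, where the last value is 6 counts. Dynlrb2, Tmem212 and Sntn were picked after their values were seen. Dynlrb2, a dynein light chain whose X-box is shown above, had 10.4 and 16.2 CPM in saline, 20.2 and 26.0 CPM at Day 3, and 22.0, 17.4 and 0 CPM at Day 8. Tmem212 had 82 and 96 counts in saline, 153 in Day 3 replicate 2, and 112, 128 and 0 counts at Day 8. Sntn, which encodes sentan at the tip of the cilium, had 44 and 99 counts in saline, 149 in Day 3 replicate 2, and 111, 168 and 4 counts at Day 8. In each of these genes Day 8 replicate 1 was within or above the range of the saline and Day 3 libraries, although Foxj1, Tekt1 and Dnah5 were low there.

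**Figure D3:**
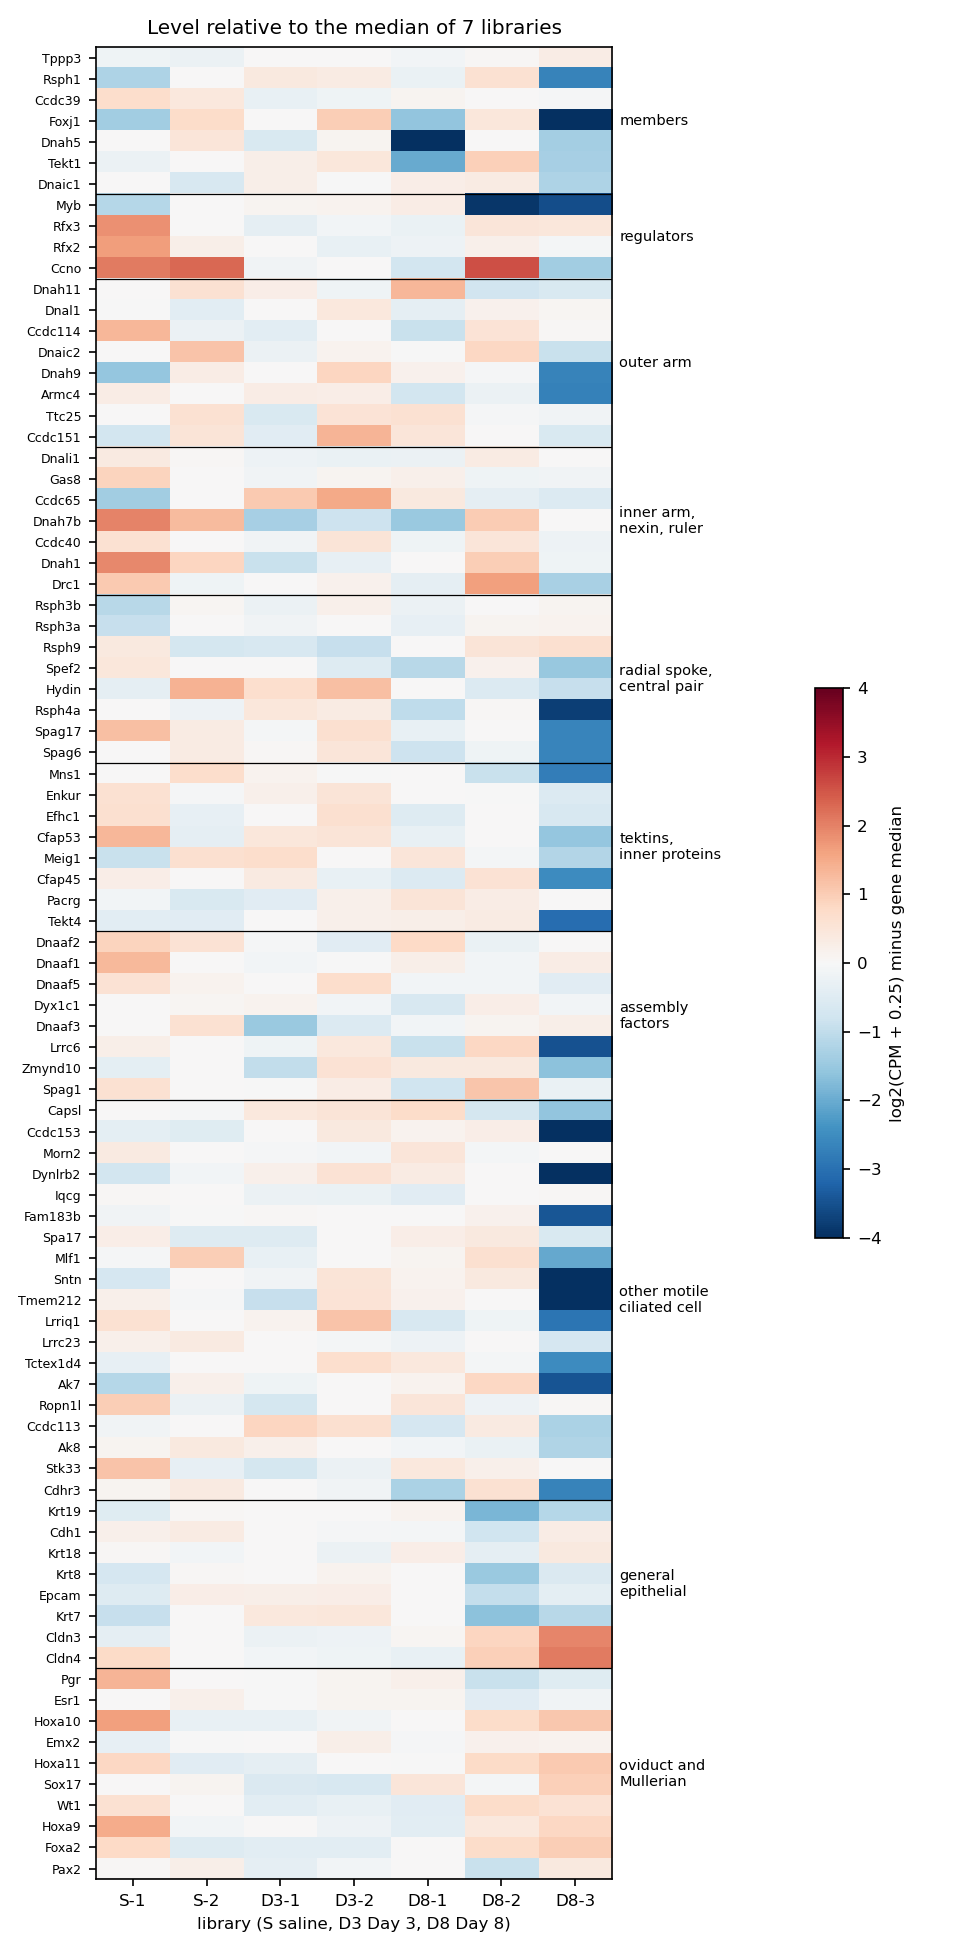
Level of each gene in each library relative to the gene's median over the 7 libraries, as log2(CPM + 0.25) minus that median, with the colour scale ending at 4 on either side. Rows are grouped by list and cover genes with a mean of 1 CPM or more. The column of Day 8 replicate 3 is blue over most ciliary lists and mixed over the general epithelial and the oviduct and Müllerian lists.

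**Figure D4:**
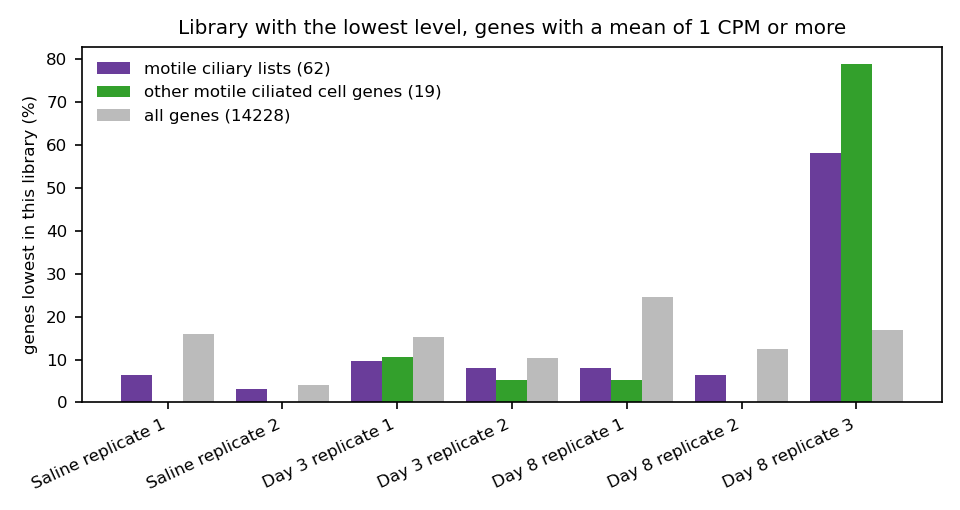
Percentage of genes whose lowest level of the 7 libraries falls in each library, for the 62 genes of the motile ciliary lists, for the 19 other motile ciliated cell genes among them, and for 14228 genes overall. Day 8 replicate 3 holds 58.1%, 78.9% and 16.8%.

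Not each ciliary gene was low in Day 8 replicate 3. Dnali1, an inner arm light chain, had 28.5 CPM there against 23.9 to 36.6 CPM in the other libraries, and Gas8, of the nexin link, had 8.35 CPM against 8.21 to 17.4 CPM. Rsph3a and Rsph3b, near-identical copies between which reads can be split, had 26.7 and 26.1 CPM there, at or near their highest level. Mns1, a protein inside the doublets, had 36.9 and 60.3 CPM in saline, 40.4 and 36.6 CPM at Day 3, and 37.2, 19.9 and 5.23 CPM at Day 8. Enkur, of the same list, had 10.3 CPM in Day 8 replicate 3 against 14.5 to 23.0 CPM elsewhere. Of the outer arm genes, Dnah11 ranged from 6.42 to 27.7 CPM with Day 8 replicate 1 the highest, and Dnal1 ranged from 4.95 to 9.03 CPM. Of the assembly factors, Dnaaf2 had 9.66 CPM and Dnaaf1 6.74 CPM in Day 8 replicate 3, within the range of the other libraries. Among the regulators, Myb split the Day 8 libraries in another way, at 44.9 CPM in replicate 1 and 2.27 and 2.92 CPM in replicates 2 and 3. Rfx3 was highest in saline replicate 1, at 26.6 CPM, as were 38% of all genes with a mean of 1 CPM or more.

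As a list, general epithelial genes did not share this pattern. In Day 8 replicate 3 their median was 0.971 times the median of the other 6 libraries, and 0 of 8 were under 0.25 times it. Their summed level was 850 and 1130 CPM in saline, 1111 and 1109 CPM at Day 3, and 1103, 585 and 1066 CPM at Day 8. It was lowest in Day 8 replicate 2, where 6 of 8 had their lowest value, against 12.4% of all genes with a mean of 1 CPM or more. Krt19 and Cdh1, a keratin and the epithelial cadherin, were the highest of the list by mean over the 7 libraries. They had 110 and 219 CPM in Day 8 replicate 3. The list was split in that library, where 3 of 8 genes (Krt18, Cldn3 and Cldn4) had their highest level, against 12.1% of all genes with a mean of 1 CPM or more. Krt19 was instead below its 244 CPM in both Day 3 libraries, and Krt7, Krt8 and Epcam were also below their Day 3 levels. The oviduct and Müllerian list holds uterine genes such as Hoxa10. It leaves out Ovgp1, which had its lowest level, 235 CPM, in Day 8 replicate 3. The genes of this list had a median of 1.76 times the other libraries there. Pgr and Esr1, the receptors of progesterone and oestrogen and the highest of the list by mean over the 7 libraries, were instead below the median of the other libraries, at 239 and 282 CPM. None of the 10 list genes with a mean of 1 CPM or more was under 0.25 times that level, while Lhx1 and Hoxa13, also on the list, were at or near 0 in each library. Mesothelial genes, which mark the outer surface of the organs, had a median of 2.71 times that level over 4 genes, and Msln and Lrrn4, the highest of them by mean over the 7 libraries, had 21.6 and 30.6 CPM there. Adipocyte genes, led by Fabp4 and Cfd, summed to 955 and 2670 CPM in saline, 2704 and 293 CPM at Day 3 and 203 to 351 CPM at Day 8, with 0 of 6 at 0 in each library. The ovarian genes were also low in Day 8 replicate 3, at medians of 0.00806 (steroidogenic) and 0 (oocyte) times the other libraries. Both sums were as low or lower in the Day 3 libraries with 1 exception, Day 3 replicate 2 at 12.8 CPM against 12.7 CPM for the steroidogenic genes, and there the ciliary lists summed to 484 and 558 CPM. The part of these other tissues in the ciliary levels was not tested.

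**Figure D5:**
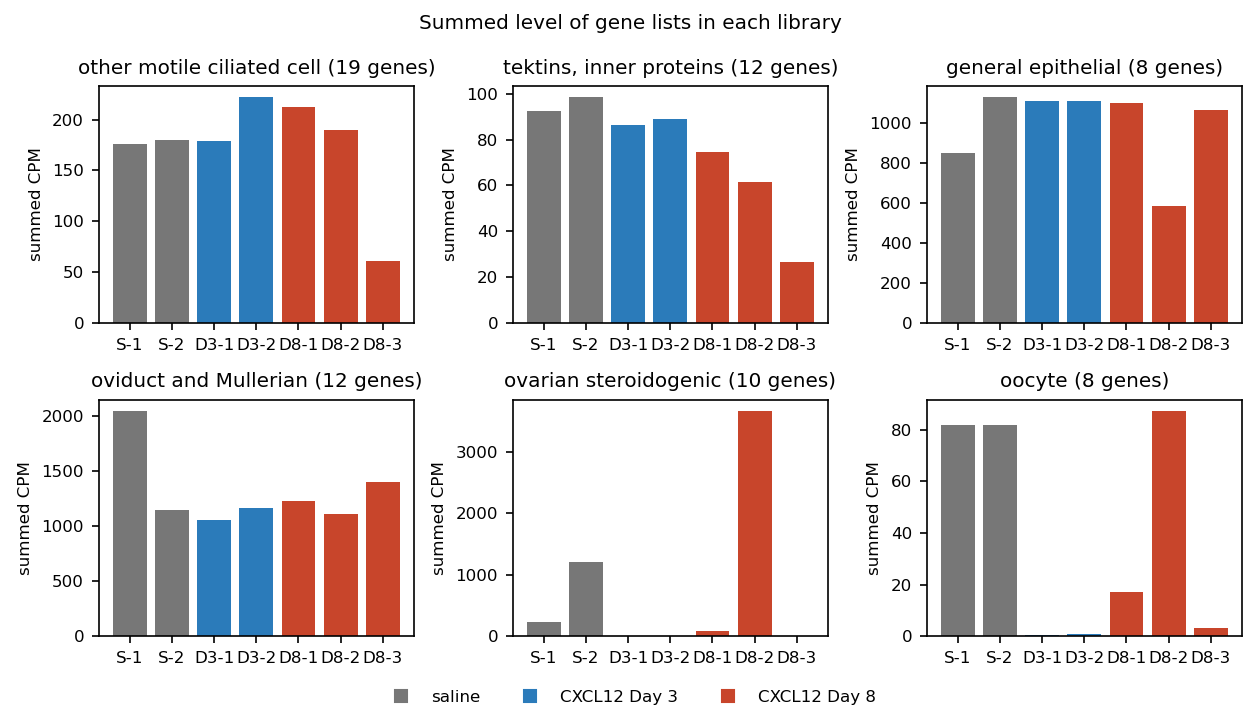
Summed level of 6 gene lists in each library, in CPM, as bars from 0. Other motile ciliated cell genes lie between 176 and 222 CPM in 6 libraries and at 61.2 CPM in Day 8 replicate 3, while ovarian steroidogenic and oocyte genes are near 0 in both Day 3 libraries and in Day 8 replicate 3.

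By the count of genes called between groups, the ciliary lists stayed near the background. At Day 8 against saline, 0 of 70 tested list genes were called by edgeR (background 2.94%), with a median log2 fold change of -0.09 beside -0.01 over all genes. Without Day 8 replicate 3 the count was again 0 of 70 (background 1.5%) and the median 0.07. At Day 3 against saline, the median log2 difference of the list genes was 0.29 beside 0.01 over all genes. There 3 of 67 (4.48%, background 4.51%) were called by limma, all in the inner arm list. Dnah7b and Dnah1, heavy chains of the inner arm, were lower, with log2 differences of -2.46 (SE 0.84) and -1.70 (SE 0.71), and Ccdc65, of the nexin link, was higher, with 2.47 (SE 0.66). Their adjusted p was 0.62. At Day 8 against Day 3, 4 of 67 (5.97%, background 4.64%) were called: Lrriq1, Ccdc65 and Ccdc113 were lower, with log2 differences of -2.02, -1.58 and -1.43, and Rsph9 was higher, with 1.12. Their adjusted p was 0.69 by limma, and without Day 8 replicate 3 the count was 0 of 67 (background 3.24%). The median log2 difference of the 67 genes was -0.35 beside 0.0009 over all genes, and -0.06 without Day 8 replicate 3. By list, with all libraries, the median ran from -1.15 (other motile ciliated cell genes) to 0.25 (inner arm). In the same comparisons, 6 of 6 adipocyte genes were called lower at Day 8 against saline (background 2.94%), with an adjusted p of 0.96 by edgeR. At Day 3 against saline, 5 of 9 ovarian steroidogenic genes and 7 of 8 oocyte genes were called lower (background 4.51%). Their adjusted p was 0.62 by limma, so none of these genes passed the adjusted threshold.

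Genes whose level followed the members were sought over the 7 libraries on the log2 scale, among 9094 genes. To the mean of the ciliary members, Pearson's r was highest for Ubxn10 (0.998), Atp13a5 (0.970), S100b (0.963), Sod3 (0.952), Tmem171 and Hist2h2bb (both 0.942), Fndc7 (0.935), Ccdc146 and Pak3 (both 0.931) and Ankrd34a (0.925). None of these 10 genes was on the motile ciliary lists, which do not hold every ciliary gene (Daw1, named below, is also absent from them). That mean is shaped most by Foxj1 at 0 in Day 8 replicate 3 and Dnah5 at 0 in Day 8 replicate 1. Genes low in these libraries are therefore favoured. Ubxn10 had 6.80 and 8.53 CPM in saline, 7.47 and 9.13 CPM at Day 3, and 3.23, 9.99 and 2.82 CPM at Day 8, so it was low in the same Day 8 libraries as Tekt1 and Dnah5. To Ovgp1, the closest genes were Prkaa2 (0.965), Hoxc4 (0.931), Kcnmb2 (0.926), Tsga10 (0.925) and Daw1 (0.918), the last an assembly factor of the outer arm that had 0 CPM in Day 8 replicate 3 and 0.417 CPM in Day 8 replicate 1. To Pax8, they were Slc5a9 (0.988), Nfe2l3 (0.985), Lrrc4c (0.984), Rhbdf2 (0.979) and Tor4a (0.977). These are the highest values among 9094 genes over 7 libraries and are given as a description with no test.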

How the data were processed

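QuantSeq 3′ libraries of uterine tissue were analysed (2 saline, 2 CXCL12 Day 3, 3 CXCL12 Day 8), grouped by their labels. The authors aligned reads with Bowtie2 and, with Bedtools, took counts per gene that include reads with more than one alignment; the submitters' processing notes name mm10 and hg19, and strand use is not given in the sources used here. As deposited, 6 tables hold these counts without normalization, while for Day 3 replicate 1 the authors gave log2(normalized count + 1). After undoing the log2, 96.8% of 4424 low values came within 0.1 of a whole number once divided by 1.0525. Symbols on more than one row (35) were kept apart.

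For Day 8 against saline, edgeR 4.0.16 was used (glmQLFTest, TMM, filterByExpr, 6 libraries, 3 residual degrees of freedom; SE as the log2 fold change over the square root of F). Comparisons with Day 3 used limma 3.58.1 with a trend on quantile-normalized log2(scaled count + 1) of 7 libraries (4 residual degrees of freedom), a scale that understates changes of low genes unless a library is at 0, where the pseudocount sets the size. Genes were called at a fold change of 2 with P of 0.05, or with a Benjamini-Hochberg adjusted p of 0.1. DESeq2 1.42.0 was an alternative, under R 4.3.3. The fits were run on simulated data for Day 8 against saline alone, and the check asked only that most changed genes kept the right direction. Genes as low as Tekt1, Dnah5 and Dnaic1 were not among those changed, so power for them was not tested. The common biological coefficient of variation was 42.2%. Lists were named by all members and, per list, by the 2 genes with the highest mean level. Genes named beyond this were called, said to be picked, alike in level, overlapping a member or not analysed. Krt8, Krt18, Epcam, Cldn4, Hoxa10, Hoxa13 and Lhx1 were named outside this rule, with their values known. The members and lists were chosen with earlier results of these data known. The labels do not say that libraries are separate animals, so p-values measure the spread between these libraries alone, which may be technical. Locations are from GENCODE M21.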

Additional observations from a re-analysis of the deposited data

How the results depend on the processing

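Of 458 values recomputed under other settings, 422 kept their direction and side of the threshold or, for counts and spans, stayed near the main value. Of the others, 20 changed direction, 9 passed the threshold that they had missed and 7 counts or spans moved. Many of the 422 could not change direction, since a limma difference of group means ignores the filter and libraries outside the comparison. At Day 8 against saline, the 2 compared groups alone and the fit without Day 3 replicate 2 were the same fit. The share that was kept is therefore no measure of stability. The count of members called at Day 8 against saline was 0 under each setting except without saline replicate 2, so that leaving out each library gave 0 to 1 (Pax8, at 2.46). At Day 3 against saline it was 1 with the 2 compared groups alone and 1 with a replicate block (Rsph1, 1.33 in both), and 0 to 1 on leaving out each library (Pax8 at 2.00 without saline replicate 2, with an adjusted p of 0.084 by limma where 1930 genes passed, Rsph1 at 1.33 without Day 8 replicate 3). At Day 8 against Day 3 it was 0 to 4, the 4 without Day 8 replicate 2. The span of the ciliary members was 1.45 to 2.48 on leaving out each library, and that of Ovgp1 1.27 to 1.59. Same-numbered libraries deviated from their groups with correlations of -0.17 to -0.00 over 14800 genes, and the numbers were not taken as pairs. In a group of 2 libraries the deviations mirror each other, so this check is weak. Saline and CXCL12 horns of the same females may be among the libraries, and pairing under other numbers was not checked. With the replicate block, Foxj1 at Day 8 against saline came to 0.014, Tekt1 to -0.15, and Dnaic1 at Day 8 against Day 3 to 0.10, each with its direction turned. Foxj1 at Day 8 against Day 3 came to -1.06 with it.

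The cause of the further changes of direction, on the log2 scale, was not tested. At Day 8 against saline, Tekt1 was -0.42 by limma. Leaving out each library gave -2.40 to 0.94 for Foxj1, -0.24 to 1.34 for Rsph1 and -1.58 to 0.56 for Tekt1. At Day 3 against saline, Ovgp1 was 0.38 by edgeR with the counts of Day 3 replicate 1 estimated and 0.13 without quantile normalization, and leaving out each library gave -0.16 to 0.11 for Ovgp1, -0.26 to 2.00 for Pax8 and -0.46 to 0.22 for Dnah5. At Day 8 against Day 3, leaving out each library gave -0.76 to 0.10 for Dnaic1. With Day 8 replicate 1 counted with Day 3, Tekt1 was 0.14, Dnah5 1.21 and Ccdc39 -0.071. The setting of edgeR with estimated counts for Day 8 against saline, and the list counts without Day 8 replicate 3, were added after seeing the data. With at least 10 counts in every library, 5 members could be tested. Over all genes, the call by the unadjusted P counted 453 at Day 8 against saline (157 with the replicate block and 1094 with Day 8 replicate 1 counted with Day 3; 229 to 1527 on leaving out each library), 667 at Day 3 against saline (1040 without quantile normalization; 236 to 2814) and 686 at Day 8 against Day 3 (425 with the replicate block and 1791 with Day 8 replicate 1 counted with Day 3; 281 to 1685). DESeq2 called 49 genes at Day 8 against saline by the adjusted p, where edgeR called 0, and no member was among them. Depth limits Tekt1, Dnah5 and Dnaic1, which rest on 0 to 64 counts a library.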

Other observations

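Among 18 general epithelial and oviduct and Müllerian genes tested, 1 was called by the unadjusted rule at Day 8 against saline (Cldn3; background 2.94%), 0 at Day 3 against saline (background 4.51%) and 3 at Day 8 against Day 3 (Cldn3, Sox17 and Krt7; background 4.64%), and none passed the adjusted p. Without Day 8 replicate 3, 0 of 18 were called in either comparison with Day 8. Cldn3, a tight junction claudin, had 51.5 and 65.8 CPM in saline, 55.3 and 57.7 CPM at Day 3, and 69.6, 120 and 254 CPM at Day 8, so that each Day 8 library was above the other 4. Its log2 fold change at Day 8 against saline was 1.57 (SE 0.54; adjusted p = 0.96 by edgeR), and its log2 difference at Day 8 against Day 3 was 1.24 (SE 0.46; adjusted p = 0.69 by limma). Sox17, a transcription factor of uterine and oviduct epithelium, was higher at Day 8 than at Day 3 by 1.09 on the log2 scale (SE 0.30; adjusted p = 0.67 by limma), with 80.8 and 87.3 CPM in saline, 54.6 and 52.1 CPM at Day 3, and 114, 76.6 and 156 CPM at Day 8. Krt7, a keratin of simple epithelia, was lower at Day 8 than at Day 3, with a log2 difference of -1.25 (SE 0.51; adjusted p = 0.69 by limma). Its Day 3 libraries had 173 and 178 CPM and its Day 8 libraries 130, 41.2 and 59.8 CPM.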
